A study of Arabidopsis thaliana with 5 samples.

Results

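Gene expression was compared between roots of Arabidopsis thaliana after 7 d of low Mg (0.5 µM) and after 7 d of high Mg (10 mM), with 1 library on each side. The members are nuclear genes with at least 5 FPKM (a fragment count divided by transcript length and library size) in at least one of the 2 libraries, which left 15684 of the 33280 nuclear loci in the deposited matrix of 33559. The plants, labelled Col-1, were 5 weeks old and grew under 10 h of light and 14 h of dark, and RNA came from roots. The series holds 3 further libraries: one each of the same low and high Mg supplies at 4 d, and a control at 4 d whose Mg level the labels do not give. No control at 7 d was analysed here, so a difference between low and high Mg cannot be assigned to either side. No value has a replicate behind it, and what follows sets one library against another. The study asked how Mg supply affects root hairs.

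Magnesium is held by chlorophyll, ATP and ribosomes, and root cells take it up through channels of the MRS2/MGT family and store it in the vacuole through proton-coupled exchangers. Root hairs are tubular outgrowths of epidermal cells that enlarge the surface for uptake, and a set of wall, membrane and signalling genes is active mainly in them. Copper shortage in Arabidopsis acts through the factor SPL7, which binds GTAC cores, raises reductases and importers for copper, and raises microRNAs that lower the transcripts of copper proteins, while an iron superoxide dismutase takes the place of the copper ones.

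Of the 15684 genes, 902 (5.75%) differed by 2-fold or more: 398 (2.54%) were higher in low Mg and 504 (3.21%) lower, where 2-fold means a difference of 1 in log2(FPKM + 1). Counts for the lists and families below stand beside these shares. The median log2 ratio of low over high Mg was 0.00 and the middle of the distribution ran between -0.20 and 0.19 (quartiles). Among 15110 coding genes whose exons sum to 500 nt or more, 707 (4.68%) differed, of which 312 (2.06%) were higher and 395 (2.61%) lower, and 72 and 87 of them by 4-fold or more. Short genes scattered more: the ratios had an SD across genes of 3.61 under 250 nt of exon, against 0.29 at 3000 nt or more. The gene nearest above the filter was AT1G61350 (4.86 FPKM in low Mg and 5.0001 in high Mg), and the nearest below it was MRL7-L (4.998 and 3.52). The libraries held about 7.08 M fragments in low Mg and 11.5 M in high Mg (M for 1e+06), estimated from the value of a single fragment, so that 5 FPKM on 1 kb of exon stood for about 35.4 and 57.4 fragments. Of 9 root markers 8 passed the filter, among them CASP1 of the endodermis with 226 FPKM in low Mg and 175 in high Mg. The shoot markers summed to 20.7 FPKM over 17 genes in low Mg and 44.0 in high Mg, and only RCA and PSBO1 (5.43 FPKM in low Mg and 17.7 in high Mg) passed the filter, both lower in low Mg. The part of shoot tissue in other differences was not tested. AT2G01021, a single nuclear locus, held 18.5% of the summed FPKM in low Mg and 15.6% in high Mg on day 7, but 75.5% in low Mg, 57.5% in high Mg and 82.3% in the control on day 4. Rescaling each library to a fixed sum (TPM) put the median over all genes at 4 d at -0.76 (log2), against -0.02 as deposited, so levels set across days, given below as deposited, depend on the scale.

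**Figure D1:**
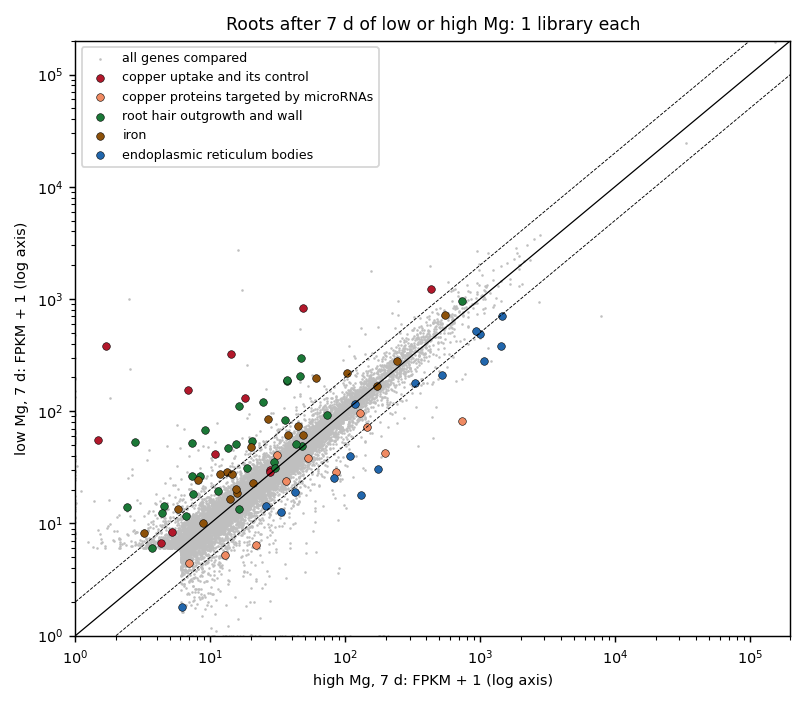
FPKM + 1 of each gene in low Mg (vertical) and high Mg (horizontal) at 7 d, both on log axes. Each grey point is 1 of 15684 genes and colours mark 5 groups of genes. The solid line is equality and the dashed lines are 2-fold, with 8 copper uptake and 19 root hair genes above the upper line and 12 endoplasmic reticulum body genes below the lower one.

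Copper genes were among those with the largest ratios. Of 12 compared genes of copper uptake and its control, a list that also holds the iron superoxide dismutase FSD1, 8 were 2-fold higher in low Mg and none lower, with a median log2 ratio of 2.4. Without FSD1, 7 of 11 were higher (median 1.95). This list was assembled after its values had been seen. Of the 11 compared copper proteins known as targets of the microRNAs, 6 were 2-fold lower in low Mg and none higher (median -1.02). Low Mg at 7 d was the highest of the 5 libraries in 10 of the 12 uptake genes, as deposited and after rescaling to TPM, against 3146 and 6031 of all 15684 genes. These 10 include SPL7 and HMA5, which were near equal at 7 d, and the exceptions were COPT1 and COPT4, with 5.63 and 7.33 FPKM against up to 25.3 and 15.2 in another library. Low Mg at 7 d was the lowest of the 5 in 10 of the 11 target genes as deposited (28.3% of all genes) but in 3 after rescaling (0.803%). Genes already 2-fold apart at 7 d reach such ends more often than all genes. Of 312 coding genes of 500 nt or more that were 2-fold higher, low Mg at 7 d was highest in 155 as deposited. Of 395 that were 2-fold lower, low Mg at 7 d was lowest in 261.

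The microRNAs of this response are shown with their seed, bases 2 to 8 from the 5′ end, in capitals, because 4 of their precursor loci were higher in low Mg. They were read from the TAIR10.1 genome of RefSeq at its annotated mature sequences.
miR398b-3p: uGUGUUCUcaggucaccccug
miR408-3p: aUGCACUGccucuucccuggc
miR397a: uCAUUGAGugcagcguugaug
miR397b: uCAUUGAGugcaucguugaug
miR857: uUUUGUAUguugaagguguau
miR397a and miR397b share the seed CAUUGAG, and miR398c-3p, from a neighbouring locus, has the same mature sequence as miR398b-3p. The windows of 21 bases in target transcripts with the most pairs to them were found by script, and 3 are shown as the transcript reads, with the bases that pair (not G to U) in capitals.
CSD1 site: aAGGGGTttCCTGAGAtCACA
ARPN site: cCaAGGGAAGAGGCAGTGCAT
LAC2 site: aATCAAtGCTGCACTCAATGA
The CSD1 window pairs at 17 of 21 bases with miR398b-3p and spans a splice junction on chr1:2827177-2827685 (plus strand), outside the coding sequence. The ARPN window pairs at 19 bases with miR408-3p on chr2:827696-827716 (minus strand), and the LAC2 window pairs at 19 with miR397a on chr2:12526364-12526384 (minus strand), both in the coding sequence. Of the windows not shown, CSD2 pairs at 13 bases with miR398b-3p, and CCS and AT3G15640, of the same target list, at 15 each. LAC7 pairs at 19 with miR857, LAC4 at 18 with miR397a, and LAC3 and LAC13 at 17 each with miR408-3p. LAC17, which was higher in low Mg, pairs at 18 with miR397a, more than CSD2 and CCS, which were 2-fold lower. The number of pairs thus did not sort the genes by direction. The match of letters is a description and does not show that a site was cut in these roots.

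FRO5, a ferric reductase family member that reduces copper at the root surface, had 382 FPKM in low Mg and 0.693 in high Mg at 7 d, a log2 ratio of 7.82. It was at 0.366 FPKM in the control and listed at 0 in both Mg libraries at 4 d. FRO5 (chr5:8105461-8108642, minus strand) was therefore abundant in 1 of the 5 libraries, from about 6442 fragments in low Mg and 19.0 in high Mg. FRO4 (chr5:8097978-8101330, minus strand) had 153 FPKM in low Mg and 5.83 in high Mg, a log2 ratio of 4.50. FRO4 and FRO5 lie next to each other and their coding sequences are 92.6% identical, with identical runs of up to 92 bases, so the authors' counting may have divided reads between them and the share of each is uncertain.

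COPT2, a high-affinity copper importer of the plasma membrane, had 322 FPKM in low Mg and 13.1 in high Mg (log2 4.51), and between 8.68 and 14.9 in the 3 libraries of 4 d. ZIP2, a metal transporter of the ZIP family, had 130 FPKM in low Mg and 17.1 in high Mg (log2 2.85). Only low Mg at 7 d was high for either gene. CCH, a copper chaperone, had 1215 FPKM in low Mg and 433 in high Mg (log2 1.48), and YSL2, a transporter of metal chelates, had 40.9 and 9.84 (log2 1.95). AT1G71200, annotated as a bHLH DNA-binding protein and without a symbol in the annotation used, had 53.9 FPKM in low Mg and 0.459 in high Mg (log2 5.23). It was under 1 FPKM in the 3 libraries of 4 d too. SPL7 itself was near equal (28.7 FPKM in low Mg and 26.6 in high Mg), as was HMA5, a copper exporting pump (27.5 and 26.8).

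The superoxide dismutases went opposite ways. FSD1, the iron enzyme of plastids, had 827 FPKM in low Mg and 47.7 in high Mg (log2 4.09), from about 9094 and 851 fragments. CSD1, the cytosolic copper and zinc enzyme, had 80.3 FPKM in low Mg and 734 in high Mg (log2 -3.18), and between 996 and 1300 in the 3 libraries of 4 d. Its plastid counterpart CSD2 had 41.1 FPKM in low Mg and 196 in high Mg (log2 -2.22), and CCS, the chaperone that loads copper into both, had 27.9 and 84.3 (log2 -1.56). In the libraries of 4 d CCS lay between 93.1 and 94.2 FPKM as deposited.

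Other microRNA targets were lower as well. ARPN, a small blue copper protein, had 5.48 FPKM in low Mg and 20.7 in high Mg (log2 -1.74). Of the laccases, copper oxidases of the cell wall, LAC2 had 4.24 FPKM in low Mg and 11.8 in high Mg (log2 -1.29), and LAC7 had 71.1 and 145 (log2 -1.02). LAC3, LAC4 and LAC13 were lower by less than 2-fold (log2 -0.46, -0.62 and -0.65), and LAC17 was higher in low Mg (39.3 FPKM against 30.3 in high Mg). LAC12 was below the filter.

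The 4 microRNA loci that passed the filter were higher in low Mg, while MIR398c and MIR857 were below it and MIR398a was listed at 0 in all 5 libraries. MIR397a and MIR397b had 51.1 and 94.3 FPKM in low Mg at 7 d and were listed at 0 in each of the other 4 libraries. MIR408 had 27.6 FPKM in low Mg and 5.73 in high Mg (log2 2.09), and between 2.90 and 4.81 at 4 d. MIR398b had 543 FPKM in low Mg and 44.9 in high Mg (log2 3.57), but its level at 4 d was 0 in low Mg, 571 in high Mg and 846 in the control. These loci are between 107 and 218 nt long, a few fragments give a high FPKM on them, and the values are of precursor RNA, not of the mature microRNA.

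**Figure D2:**
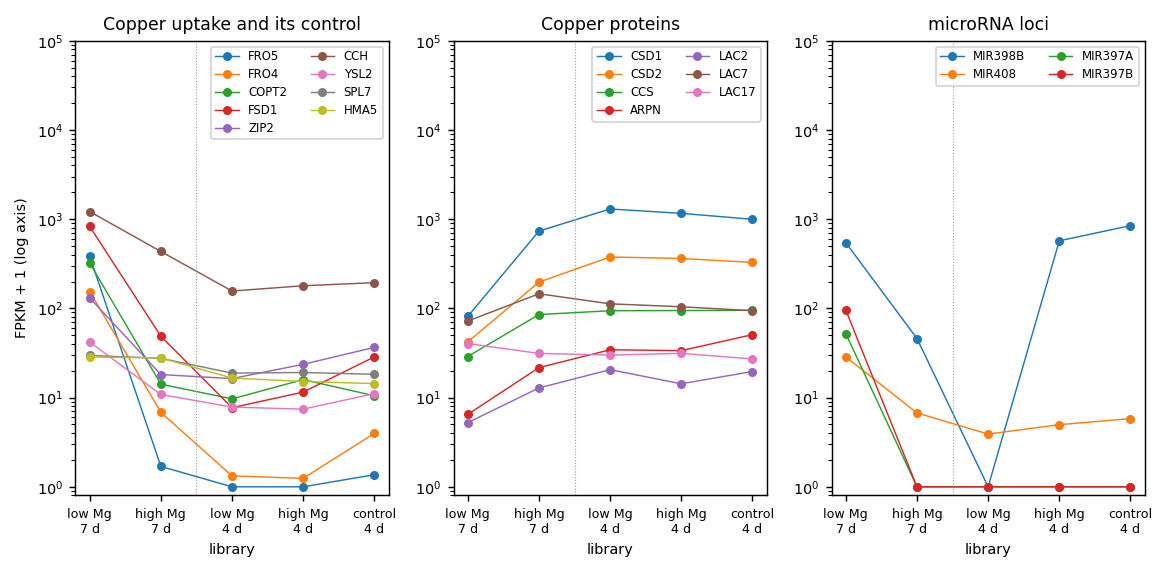
FPKM + 1 on a log axis in each of the 5 libraries for copper uptake genes (left), copper proteins (middle) and microRNA loci (right), with 1 point per library. Lines join the values of 1 gene and carry no order in time. Of the genes drawn, low Mg at 7 d stands above the other libraries on the left and, as deposited, below them in the middle, apart from LAC17, while COPT1 and COPT4 are not drawn. MIR398b on the right was as high in 2 libraries of 4 d.

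GTAC, which reads the same on both strands, was searched in the 250 bases upstream of each annotated gene start. It occurs at least once in 34.4% of the windows of 26694 coding genes and at least 3 times in 1.42%. Among the 348 coding genes 2-fold higher in low Mg, 39.9% held it at least once, and among the 445 that were lower, 34.4%. The share was 27.3% among the 44 coding genes 8-fold higher in low Mg (12 of 44) and 30.8% in the copper uptake list (4 of 13). With so few genes, neither share can be set apart from the 34.4% of all coding genes. At least 3 were held by 2 of these 13 (15.4%, against 1.42% of all coding genes). MIR398b held it 5 times, MIR408 and MIR397b 4 times each, and MIR397a, MIR398c, ZIP2 and YSL2 3 times each. FRO4, FRO5, COPT2 and MIR857 held none in this window. The windows of MIR397b and ZIP2, as examples of a microRNA locus and a transporter with several, are shown 5′ to 3′ on the gene's strand with GTAC in capitals.
MIR397b: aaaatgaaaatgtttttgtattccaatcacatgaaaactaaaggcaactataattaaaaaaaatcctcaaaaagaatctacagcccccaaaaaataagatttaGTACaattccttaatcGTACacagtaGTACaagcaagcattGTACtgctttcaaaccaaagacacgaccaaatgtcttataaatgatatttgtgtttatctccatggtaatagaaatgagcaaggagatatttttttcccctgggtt
ZIP2: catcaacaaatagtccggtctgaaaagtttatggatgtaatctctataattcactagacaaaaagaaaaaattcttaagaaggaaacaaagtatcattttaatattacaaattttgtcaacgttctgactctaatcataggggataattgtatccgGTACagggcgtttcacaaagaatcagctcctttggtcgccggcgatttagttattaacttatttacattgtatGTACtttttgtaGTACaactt
Both are on the minus strand of TAIR10.1, at chr4:7878761-7879010 for MIR397b and chr5:23992909-23993158 for ZIP2.

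Beside copper, 6 defensin-like genes, which encode small cysteine-rich secreted peptides, were higher in low Mg and 2 lower, of 13 compared. The 8 have 413 to 1268 nt of exon, and short genes differ often: 41.5% of all compared genes of 250 to 500 nt and 11.6% of those of 500 to 1000 nt were 2-fold apart. AT5G33355 had 2733 FPKM in low Mg and 14.9 in high Mg (log2 7.42), and AT3G59930 had 1208 and 16.2 (log2 6.13). At 4 d these 2 genes lay between 28.7 and 153 FPKM. AT4G11393 had 238 FPKM in low Mg and 1.55 in high Mg, and AT1G34047 had 131 and 0.814. These genes carry no symbol and were picked after their values were seen, and near-identical members of the family may share reads.

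Genes of root hair outgrowth and wall were higher in low Mg as a group: 19 of the 30 compared were 2-fold higher or more, none was 2-fold lower, and the median log2 ratio was 1.57 against 0.00 over all genes. Of the other 11, 10 lay between 0.03 and 0.83 and LRX2 lay at -0.27. PRP1, PIP5K3 and IRE were below the filter. In a bulk root sample, fewer hair cells and less RNA per hair cell cannot be told apart. High Mg at 7 d was the lowest of the 5 libraries in 24 of the 30 genes as deposited (28.4% of all genes) but in 3 after rescaling to TPM (0.453%). Genes higher in low Mg at 7 d reach this end more often than all genes. Of the 312 coding genes of 500 nt or more that were 2-fold higher, high Mg at 7 d was lowest in 212 as deposited.

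Walls of hairs contain extensins and proline-rich proteins. EXT6 had 66.5 FPKM in low Mg and 8.15 in high Mg (log2 2.88), EXT10 had 109 and 15.2 (log2 2.76), and both lay between 134 and 394 FPKM at 4 d as deposited. PRP3, a proline-rich wall protein of hairs, had 119 FPKM in low Mg and 23.4 in high Mg (log2 2.29), and LRX1, which guides wall assembly in the hair, had 46.3 and 12.6 (log2 1.8). Extensins are repetitive in sequence, so reads may be shared among them and single members are uncertain.

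Enzymes that loosen the wall followed. XTH26, a xyloglucan-modifying enzyme, had 51.2 FPKM in low Mg and 6.36 in high Mg (log2 2.83), XTH14 had 186 and 36.1 (log2 2.33), and XTH12 had 13.0 and 1.43 (log2 2.53). The hair expansins EXPA7 and EXPA18 had 53.0 and 50.04 FPKM in low Mg, against 19.4 and 14.4 in high Mg (log2 1.40 and 1.73). All of these were 2-fold higher in low Mg, as were the root hair specific genes RHS13 (296 FPKM in low Mg and 45.8 in high Mg, log2 2.67), RHS19 (205 and 45.5, log2 2.15) and AGP3, an arabinogalactan protein (188 and 35.9, log2 2.36). RHS15, also named G3Pp2, a glycerol-3-phosphate permease, had the highest ratio of the group, with 51.9 FPKM in low Mg and 1.78 in high Mg (log2 4.25).

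Genes of signalling and tip growth, grouped here by known role, were spread widely. COW1, a phosphatidylinositol transfer protein needed for hair elongation, had 25.5 FPKM in low Mg and 7.36 in high Mg (log2 1.67). RHD2, the NADPH oxidase of the hair tip, had 34.5 FPKM in low Mg and 28.8 in high Mg (log2 0.25), CSLD3, a glucan synthase of the tip, 29.9 and 29.0 (log2 0.04), and ROP2, the GTPase that marks the hair site, 48.4 and 47.2 (log2 0.03). RHD4, a lipid phosphatase of the tip, had 49.7 and 42.3 FPKM (log2 0.23), SCN1, which confines growth to one site, 90.7 and 71.9 (log2 0.33), and ACT2, an actin, 967 and 736 (log2 0.39). These 6 genes stayed well within 2-fold. MRH6 (25.6 FPKM in low Mg and 6.33 in high Mg), the kinase RHS10 (13.3 and 3.55), RHS12 (11.4 and 3.41), EXT12 (17.3 and 6.40) and the proline-rich PRPL1 (81.7 and 34.8) were 2-fold higher, at log2 1.21 to 1.86. AHA7, a proton pump (30.4 FPKM in low Mg and 17.62 in high Mg), MRH1 (18.3 and 10.4), RHS18 (10.7 and 5.60) and XTH13 (5.02 and 2.71) were higher by less than 2-fold.

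Families taken from the annotation, after the values were seen, gave counts of the same kind. Of 14 compared genes annotated as root hair specific, which overlap the list above, 10 were higher and none lower (median 1.35), among them RHS14 (14.3 FPKM in low Mg and 2.89 in high Mg) and RHS16 (9.71 and 1.71). Of 32 extensin-like genes, 10 were higher and 1 lower, the lower being EXT4 with 214 FPKM in low Mg and 770 in high Mg. Class III peroxidases, which build and loosen walls, went both ways. Of 50 compared, 4 (8%) were higher and 6 (12%) lower, against 2.54% and 3.21% of all genes. AT3G49960 had 48.1 FPKM in low Mg and 7.79 in high Mg, and PRXCB had 13.4 and 67.1. Of 13 CAP proteins, small secreted cysteine-rich proteins, 5 were higher and 1 lower, led by AT5G26130 with 1759 FPKM in low Mg and 154 in high Mg (log2 3.51).

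Among the transcription factors of root hairs, 1 of 7 compared was 2-fold higher in low Mg and none lower, with a median log2 ratio of 0.02. LRL3, a bHLH factor of hair growth, had 26.8 FPKM in low Mg and 12.8 in high Mg (log2 1.01, but 0.94 after rescaling to TPM and 0.84 with a pseudocount of 5 FPKM, which leaves none of the 7 at 2-fold), and RSL2 had 12.3 and 5.77 (log2 0.98). RHD6, which starts hair formation, had 9.14 and 9.37 FPKM (log2 -0.03), LRL1 had 64.9 and 63.8, LRL2 13.5 and 13.2, OBP4 43.7 and 35.9, and GTL1 27.9 and 27.5. RSL1 and RSL4 were below the filter in both libraries, with RSL4, the factor that sets hair length, at 3.14 FPKM in low Mg and 2.66 in high Mg. Of 8 compared genes of epidermal fate, which decide whether an epidermal cell becomes a hair cell, ETC1 alone was 2-fold apart, with 7.24 FPKM in low Mg and 2.95 in high Mg (log2 1.06). ETC1 fell short of 2-fold after rescaling to TPM (log2 0.995) and with a pseudocount of 5 FPKM (0.62), which leaves none of the 8. WER, the factor of non-hair fate, had 24.8 FPKM in low Mg and 29.2 in high Mg, its downstream factor GL2 7.61 and 8.15, and CPC, the factor of hair fate, 12.6 and 16.5. With TTG1, EGL3, GL3 and SCM they lay between -0.61 and 0.25, and TRY and MYB23 were below the filter.

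At 4 d the same hair outgrowth genes lay the other way: as deposited, 8 of 32 compared were 2-fold lower in low Mg (1.8% of all genes), 1 was 2-fold higher, 30 of the 32 had a ratio below 0, and the median log2 ratio was -0.68. After rescaling to TPM, 23 of 30 were 2-fold lower (11.4% of all genes) and the median was -1.32, against -0.76 over all genes. EXPA7 had 35.9 FPKM in low Mg and 70.3 in high Mg at 4 d, and EXT12 had 37.9 and 195, beside 17.3 and 6.40 at 7 d. The 4-d and 7-d libraries also differ in genes that follow the time of day, with CCA1, a clock gene of the morning, at 228 and 256 FPKM (low and high Mg) on day 7 and at 0.201 and 0.172 on day 4. The part of sampling time in the difference between days was not tested.

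**Figure D3:**
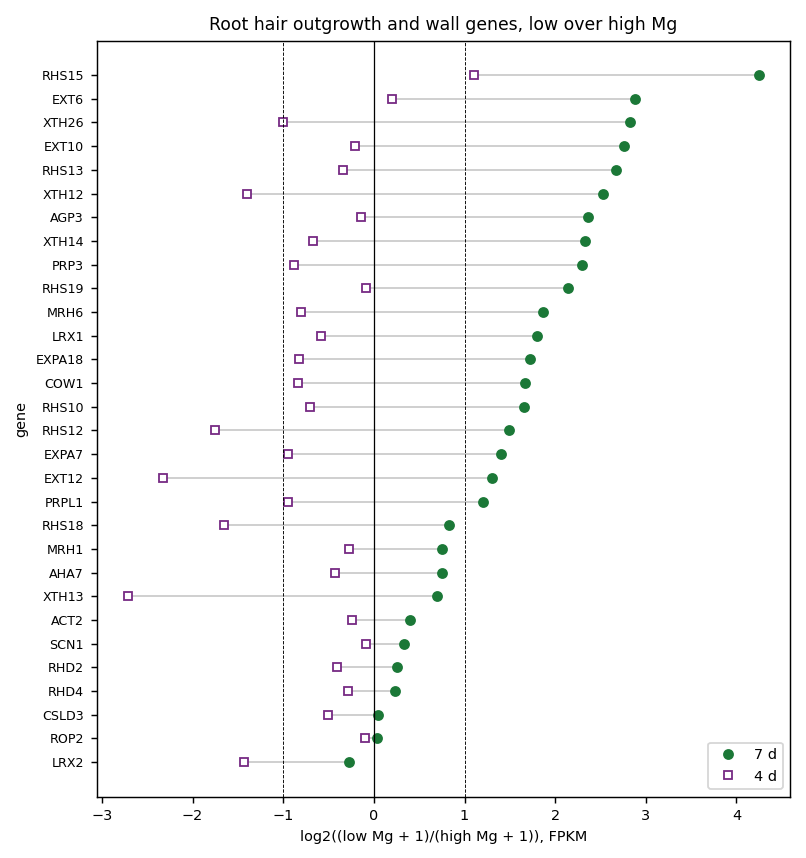
log2((low Mg + 1)/(high Mg + 1)) of FPKM for the 30 root hair outgrowth and wall genes compared at 7 d, with 7 d as filled circles and 4 d as open squares. Dashed lines mark 2-fold. At 7 d 19 genes lie right of 1 and none left of -1.

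Most genes of Mg2+ transport and its control lay within 2-fold. Of 18 compared, 2 (11.1%) were 2-fold higher in low Mg and 1 (5.56%) was 2-fold lower, against 2.54% and 3.21% of all genes. The median log2 ratio was -0.07. The 7 compared MRS2 channels and MGT1 lay between -0.38 (MRS2-11, of the chloroplast, with 6.48 FPKM in low Mg and 8.76 in high Mg) and 0.14 (MRS2-3, with 39.6 and 35.8), and MRS2-6 was below the filter. MHX, the vacuolar Mg2+ and Zn2+ exchanger, had 8.40 FPKM in low Mg and 10.3 in high Mg. CAX1, a vacuolar calcium exchanger, had 24.1 FPKM in low Mg and 7.48 in high Mg (log2 1.57), and CAX3 had 7.14 and 3.06 (log2 1.002). The call of CAX3 ended after rescaling to TPM (log2 0.94) and with a pseudocount of 5 FPKM (0.59). At 4 d their log2 ratios were 0.59 and 1.27 as deposited, and -0.12 and 0.42 after rescaling to TPM. The sign of CAX1 at 4 d thus depends on the scale. The medians over all genes at 4 d were -0.02 as deposited and -0.76 after rescaling, and CAX1 lay above both. CIPK9, a kinase that works with CBL calcium sensors, had 2.71 FPKM in low Mg and 7.74 in high Mg (log2 -1.24), and 0.780 and 8.35 at 4 d. With a pseudocount of 5 FPKM its ratio at 7 d was -0.73, short of 2-fold. CBL2, CBL3, CIPK3, CIPK23, CIPK26 and CNGC10 lay between -0.24 and 0.26.

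Iron genes were higher in low Mg, 9 of 21 compared at 2-fold or more and none lower, with a median of 0.72. IRT1, the main iron importer of the root surface, had 195 FPKM in low Mg and 60.004 in high Mg (log2 1.69), and FRO2, its ferric reductase, had 84.3 and 26.0 (log2 1.66). CYP82C4, which makes an iron-chelating coumarin, had 23.5 FPKM in low Mg and 7.06 in high Mg (log2 1.61), and NAS4, a nicotianamine synthase, had 7.21 and 2.2 (log2 1.36). FRD3, bHLH39, MTPA2, VTL1 and FER1 made up the rest, at log2 1.09 to 1.26. At 4 d IRT1 had 81.0 FPKM in low Mg and 185 in high Mg, so its ratio was opposite there, as was that of FRO2. Beside copper, the zinc importers ZIP9 (14.8 FPKM in low Mg and 3.23 in high Mg), ZIP3 (95.4 and 27.2) and ZIP4 (26.0 and 9.08) were 2-fold higher, and of the 18 compared genes of zinc and copper transport, which include FRO4, FRO5, COPT2, ZIP2 and CCH, 8 were higher and none lower, with a median of 0.80. Of 6 metallothioneins, small metal-binding proteins picked after their values were seen, MT1C (2689 FPKM in low Mg and 940.2 in high Mg) and MT1B (110 and 48.4) were 2-fold higher and MT3 was lower (126 and 283). In the vacuolar iron transporter family, AT1G76800 had 47.1 FPKM in low Mg and 8.61 in high Mg (log2 2.32).

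Other nutrient genes differed one by one. HAK5, the high-affinity potassium importer, had 9.76 FPKM in low Mg and 88.1 in high Mg (log2 -3.05), and 23.9 and 184 at 4 d, so it lay the same way on both days. RAP2.11, a factor that acts on HAK5, had 17.1 FPKM in low Mg and 5.36 in high Mg (log2 1.5), while the 19 compared potassium genes had a median of -0.03. NRT2.7, a nitrate transporter, had 44.3 FPKM in low Mg and 2.51 in high Mg (log2 3.69), and between 2.37 and 2.56 at 4 d. SLAH3, an anion channel, had 68.9 and 31.0 FPKM (log2 1.13). As deposited, it was the only one of 19 nitrate and ammonium genes of its list that was 2-fold apart. NRT2.1 of that list lay at log2 -0.97, but at -1.04 after rescaling to TPM. SULTR1;1, a sulfate importer, was higher in low Mg (65.0 FPKM against 30.6 in high Mg, log2 1.06, but 0.99 after rescaling to TPM and 0.98 with a pseudocount of 5 FPKM), and LSU2, a marker of sulfur shortage, lower (1.07 against 10.02). PHT1;9, a phosphate transporter, was at 8.37 FPKM in low Mg and 3.34 in high Mg (log2 1.11), and SPX1, a phosphate sensor that follows shortage, at 3.99 and 9.30 (log2 -1.05). ALMT1, a malate exporter of the root tip, had 24.2 FPKM in low Mg and 1.46 in high Mg (log2 3.36), and FLA6, a fasciclin-like arabinogalactan protein, 15.2 and 0.773 (log2 3.19).

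Genes of endoplasmic reticulum bodies, compartments that store beta-glucosidases, were lower in low Mg: 12 of 16 compared by 2-fold or more and none higher, with a median log2 ratio of -1.35. This list, too, was assembled after the values were seen. PYK10, the main beta-glucosidase of the bodies, had 276 FPKM in low Mg and 1063 in high Mg (log2 -1.94), and BGLU25 had 16.9 and 131 (log2 -2.88). BGLU22 had 382 FPKM in low Mg and 1425 in high Mg (log2 -1.90), and BGLU21 had 485 and 996 (log2 -1.04). The coding sequences of BGLU21 and BGLU22 are 93.3% identical, so reads may be divided between them. NAI1, the factor that the bodies require, had 11.6 FPKM in low Mg and 32.1 in high Mg (log2 -1.39), and NAI2, which shapes them, 177 and 327 (log2 -0.88). PBP1, a lectin that binds PYK10, had 697 and 1460 FPKM (log2 -1.07), and JAL33, a related lectin, 29.3 and 175 (log2 -2.54). Of the 21 jacalin lectins compared in the whole family, 8 were lower and 1 higher. The median of the body genes at 4 d was -0.71 as deposited, with 15 ratios below 0, and -1.45 after rescaling to TPM. Over all genes these medians were -0.02 and -0.76. Low Mg at 7 d was the lowest of the 5 libraries in 12 of the 16 as deposited (28.3% of all genes) but in 1 after rescaling (0.803%). The list was picked for low ratios at 7 d, so all genes are not a like set. Of the 395 coding genes of 500 nt or more that were 2-fold lower, low Mg at 7 d was lowest in 261 as deposited.

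Triterpene genes were lower too, with all 4 compared at 2-fold or more and a median of -2.33. They belong to the thalianol and marneral clusters of neighbouring genes. CYP705A5, of the thalianol cluster, had 1.67 FPKM in low Mg and 18.9 in high Mg (log2 -2.90), and CYP705A12, of the marneral cluster, had 5.62 and 37.9 (log2 -2.56). At 4 d the 5 compared members were likewise all 2-fold lower in low Mg, as were the 3 that passed the filter after rescaling to TPM.

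Runs of at least 3 neighbouring coding genes that were all 2-fold apart the same way numbered 4, and all 4 were lower in low Mg. The longest held 6 genes, AT5G52670 to AT5G52720 (chr5:21363486-21379744), each annotated as a member of the copper transport protein family, with log2 ratios from -3.49 to -1.66. AT5G52710 had 22.8 FPKM in low Mg and 90.2 in high Mg, and AT5G52690 had 1.90 and 24.6. At 4 d these 6 genes had positive ratios as deposited, from 0.56 to 2.69. After rescaling to TPM only AT5G52670 was negative (-0.21), with the median over all genes at -0.76. At 7 d, 7 of the 9 compared members of the family were lower. The second run was AT5G23820 to AT5G23840, annotated as MD-2-related lipid recognition genes, where AT5G23820 had 12.8 FPKM in low Mg and 101 in high Mg. The third held CYP705A5 and CYP708A2 of the thalianol cluster (AT5G47980 to AT5G48000), and the fourth AT1G15610 to AT1G15640. Neighbours of one family may share reads, so these genes are not independent counts.

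Among the single lowest genes with a symbol, TAT3, an aminotransferase of tyrosine metabolism, had 2.97 FPKM in low Mg and 88.2 in high Mg (log2 -4.49). At 4 d it was lower as well (0.618 and 13.1). HO4, a haem oxygenase, had 2.70 and 49.0 FPKM (log2 -3.76), scpl14, a serine carboxypeptidase-like gene, 1.02 and 26.5 (log2 -3.77), and ARD3, a dioxygenase of the methionine cycle, 2.23 and 35.1 (log2 -3.48). HOL2, a methyltransferase, had 0.845 and 17.5 FPKM (log2 -3.32). PSK5, a phytosulfokine precursor, had 4.58 FPKM in low Mg and 29.6 in high Mg (log2 -2.46), and PSK4 and PSK2 were lower too (17.0 and 14.0 FPKM in low Mg, against 96.8 and 34.7 in high Mg). PSK1, PSK3 and the receptor PSKR1 lay within 2-fold.

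**Figure D4:**
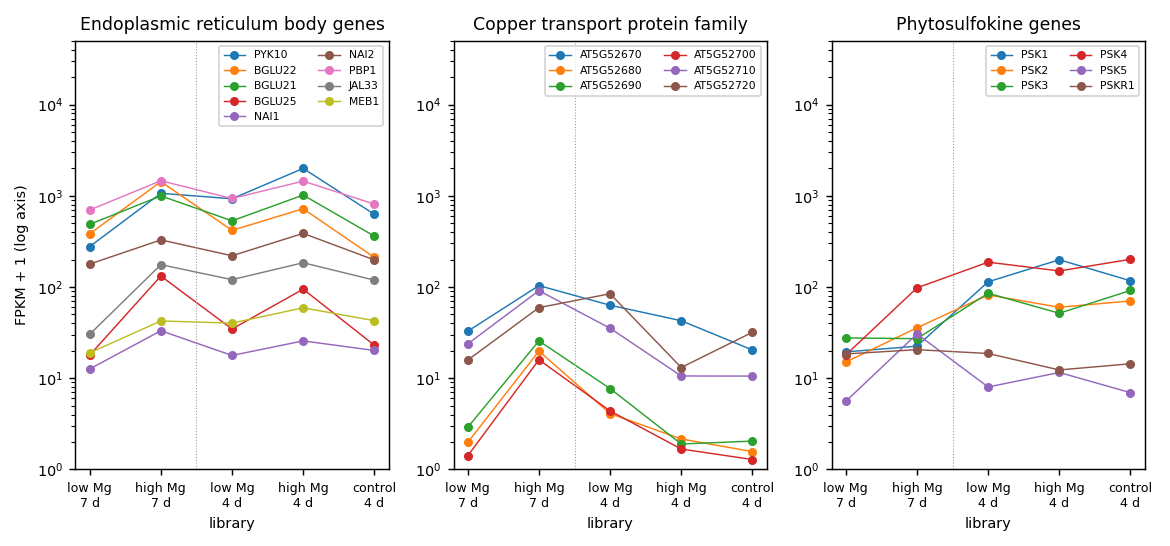
FPKM + 1 on a log axis in the 5 libraries for endoplasmic reticulum body genes (left), neighbouring copper transport protein family genes (middle) and phytosulfokine genes (right). Lines join the values of 1 gene and carry no order in time. Most body genes are lower in low Mg than in high Mg on both days, and the neighbouring family genes are lower in low Mg at 7 d.

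Stress, hormone and wall lists lay closer to 0. Salicylate and defence genes, 15 compared, had a median of -0.30 with ICS1, the salicylate synthesis enzyme, at 4.34 FPKM in low Mg and 11.2 in high Mg as the single 2-fold gene, whereas at 4 d 13 of 18 were 2-fold higher in low Mg as deposited (3.69% of all genes) and 6 of 13 after rescaling to TPM (1.4%). Of 47 WRKY factors, many of which act in defence, 5 (10.6%, against 3.21% of all genes) were lower at 7 d. WRKY62 led them (4.07 FPKM in low Mg and 15.9 in high Mg), and WRKY58 was higher (13.4 and 5.74). The 15 compared genes of the camalexin and indole glucosinolate list had a median of -0.16. Of these, CYP71A12 (40.3 FPKM in low Mg and 17.2 in high Mg) and CYP82C2 (5.78 and 0.560) were 2-fold higher. CYP81F4, of indole glucosinolate synthesis, was 2-fold lower (25.6 and 66.5). CYP71A13 and PAD3 of the same list lay at log2 0.33 and 0.72 after rescaling to TPM, under 2-fold. CML38 and CML39, calmodulin-like proteins that touch induces, were lower, at 5.18 and 2.73 FPKM in low Mg, against 12.04 and 25.3 in high Mg. No member was 2-fold apart among 13 ethylene genes (ACO4 -0.87 to ERF2 0.57), 16 auxin genes (IAA2 -0.28 to LBD29 0.72), 18 Casparian strip and suberin genes (FAR5 -0.91 to CASP4 0.92), 18 genes of meristem and cell cycle (SCR -0.26 to CYCB2;1 0.61) or 11 of xylem secondary wall (LAC4 -0.62 to XCP2 0.61). The same held for the compared members of low oxygen (10 of 13, ADH1 -0.59 to HRE1 0.21) and endoplasmic reticulum chaperones (10 of 12, BZIP28 -0.47 to CRT1 -0.02). It held for those of flavonoids (6 of 18, F3H lowest at -0.72) and heat shock (3 of 13, MBF1C -0.85 to HSP101 0.77). It also held for abscisic acid (4 of 15, ABI1 -0.40 to ABF3 0.25), phloem (5 of 5, SEOR1 -0.14 to SUC2 0.28) and senescence (2 of 4, NAP -0.32 to SAG21 0.47). The other entries of these lists were below the filter. JAZ5, a jasmonate repressor (3.11 FPKM in low Mg and 7.59 in high Mg), CKX4, which degrades cytokinin (15.4 and 36.1), and ASN1, a sugar-starvation gene (11.0 and 24.1), were 2-fold lower. GASA1, a gibberellin-regulated peptide gene (593 FPKM in low Mg and 260 in high Mg), DIN10 (489 and 139) and EXO (108 and 42.4), both of the sugar list, were 2-fold higher. So were RVE2, of 9 compared morning clock genes (log2 1.07, but 0.99 after rescaling to TPM), and ELF4, of 4 evening ones. ELF4 had a log2 ratio of 1.37, but 0.83 with a pseudocount of 5 FPKM. Among the root markers TIP2;3 was 2-fold higher too (log2 1.03 after rescaling to TPM). Of 12 plasma membrane aquaporins, 11 had a positive ratio, and PIP2;4 was at 507 FPKM in low Mg and 247 in high Mg (log2 1.03, but 0.95 after rescaling to TPM), while PIP2;5 was at 9.31 and 19.6 (log2 -0.998, but -1.07 after rescaling). The 7 genes used as references had a median of 0.26, with GAPC2 at 1826 FPKM in low Mg and 1245 in high Mg and PP2AA3 at 46.2 and 44.4.

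**Figure D5:**
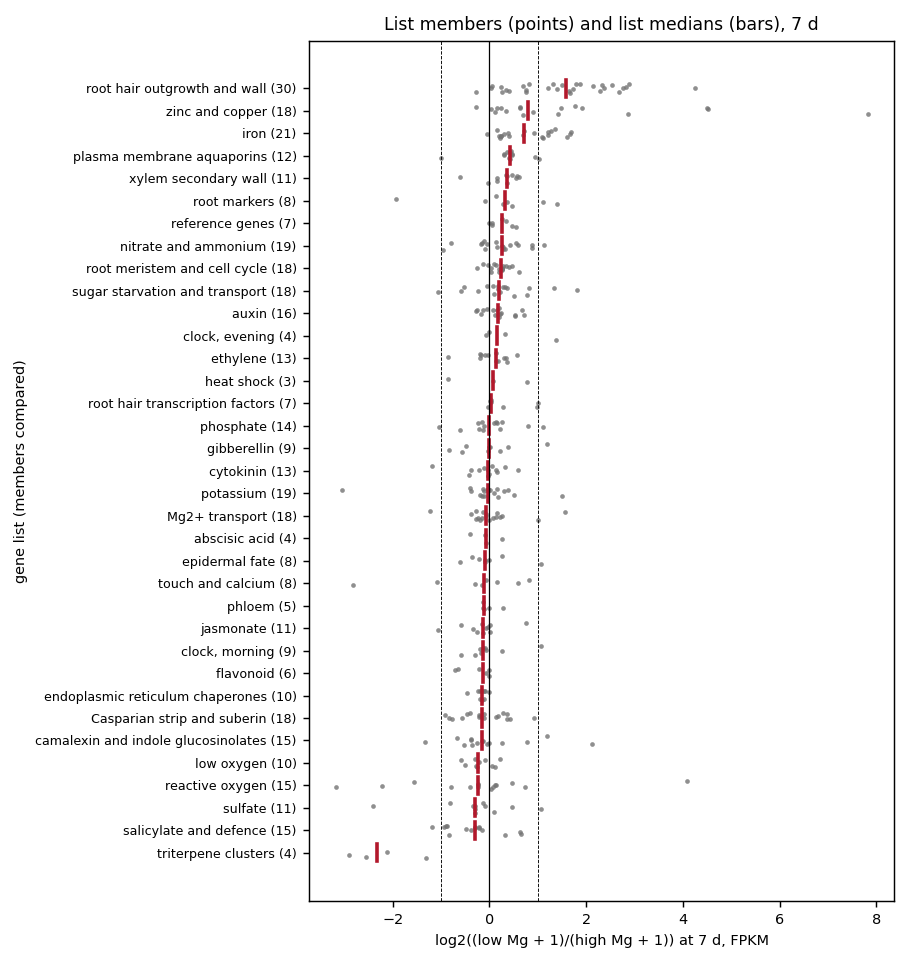
log2((low Mg + 1)/(high Mg + 1)) of FPKM at 7 d for the members of each gene list (points) and the list median (bar), with the number of members compared in brackets. Dashed lines mark 2-fold. Root hair outgrowth genes have the highest median (1.57) and triterpene genes the lowest (-2.33) of the lists shown.

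Over the 14843 genes compared on both days, 57 were 2-fold higher in low Mg on both and 73 lower on both, while 112 lay 2-fold apart in opposite ways. The 57 were 18.4% of the genes higher at 7 d and 13.5% of those higher at 4 d, and the 73 were 18.3% and 34.1% of the lower ones. At 4 d, 870 (5.49%) of 15837 genes were 2-fold apart, and 585 (3.69%) were higher in low Mg and 285 (1.8%) lower. HAK5, TAT3, CYP705A5 and BGLU25 were among those lower on both days, and FRO2, IRT1, XTH12 and CML38 among those that lay opposite ways.

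Of genes listed at 0 in one library, 12 were coding and 500 nt or longer, 7 at 0 in high Mg and 5 in low Mg, and none of them has a symbol. AT4G12360, annotated as a lipid-transfer family protein and chosen after its value was seen, had 24.6 FPKM in low Mg and was listed at 0 in high Mg, with 13.4, 0.930 and 25.8 FPKM in low Mg, high Mg and control at 4 d. No fold is given for these genes.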

How the data were processed

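RNA-seq of whole roots was analysed in 5 libraries, of which the 2 of 7 d are compared here. The authors deposited 1 matrix of FPKM per locus. For the samples of 4 d the submitters' processing notes name TopHat2 2.0.8, Cufflinks 2.1.1 and the genome build TAIR10. For those of 7 d they name TAIR10 alone. How these were aligned and counted is not given in the sources used here, so FPKM at 7 d was read from the values. Strand information is not given either, so overlapping and antisense genes cannot be told apart.

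From these values log2((low Mg + 1)/(high Mg + 1)) was computed with a pseudocount of 1 FPKM, over nuclear loci with at least 5 FPKM in either library. The scale understates the change of low genes. A gene was called at 2-fold. No p-value was computed, since each group has 1 library. Fragments per library were estimated from the spacing of low FPKM values times gene length in genes of 2000 nt or more, and cover counting only. The procedure was tested on simulated data.

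The members and lists were chosen with earlier results of these data known. The rule named the 12 highest and 12 lowest coding genes with a symbol, 500 nt or more and values above 0 in both libraries. It also named up to 4 genes each way per list among those 2-fold apart, all Mg2+ and root hair members, and the ends of lists with no 2-fold member. The copper, endoplasmic reticulum body, phytosulfokine and metallothionein lists, the annotation families, the neighbouring runs and genes without a symbol were added after their values were seen. Of 597 entries of the 37 main lists 15 were dropped, and of the added lists 1, because the annotation or the matrix did not hold the locus under that symbol. Names and coordinates came from the RefSeq annotation of TAIR10.1, which held 97.8% of the loci, and sequences were cut from that genome. Alternatives were other pseudocounts, filters, scalings and folds. Python 3.11.15, numpy 2.4.6, pandas 2.3.3 and matplotlib 3.10.9 were used.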

Additional observations from a re-analysis of the deposited data

Results flagged for a closer look

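Genes named in the report whose ratio of low over high Mg was 2-fold or more one way at 7 d and 2-fold or more the other way at 4 d numbered 9, with 1 library per group, and the difference between days was not tested. Higher in low Mg at 7 d and lower at 4 d were XTH26 (log2 2.83 at 7 d), XTH12 (2.53), IRT1 (1.69), FRO2 (1.66), RHS12 (1.49) and EXT12 (1.31). Lower in low Mg at 7 d and higher at 4 d were HOL2 (-3.32), ICS1 (-1.19) and CML38 (-1.08). After rescaling to TPM the ratios at 4 d of HOL2 and ICS1 were 0.89 and 0.50, under 2-fold, and the other 7 stayed opposite at 2-fold or more. The median over all genes at 4 d was then -0.76.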

How the results depend on the processing

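No paired analysis was possible because each group holds 1 library. The 398 genes higher and 504 lower in low Mg became 243 and 317 with a pseudocount of 5 FPKM, 212 and 254 with a filter of 20 FPKM, 941 and 1157 at 1.5-fold, and 186 and 233 at 3-fold. The 57 genes higher on both days became 29 with the filter of 20 FPKM and 19 after rescaling to TPM, the 73 lower on both days became 36 and 116, and the 112 that lay opposite ways became 47 with that filter. Of the iron genes 5 were higher with a pseudocount of 5 FPKM and 3 at 3-fold, against 9, and 2 triterpene genes were lower with the filter of 20 FPKM, against 4. The cause was not tested, beyond the fewer genes that a higher filter or fold leaves. Of 883 values of 116 named genes under the alternatives, 66 moved. These were 49 with a pseudocount of 5 FPKM, 12 after rescaling to TPM and 5 with a pseudocount of 0.1 FPKM. Settings that only choose which genes are compared cannot change a gene's own ratio. Their values among the 883 therefore test nothing, and 66 of 883 is not a measure of stability. Some genes with small ratios changed sign, such as ROP2 (log2 -0.04) and CSLD3 (-0.03) after rescaling to TPM. Of 295 values of 37 list medians, 10 moved. Triterpene genes, at -2.33, ran from -2.67 (pseudocount of 0.1 FPKM) to -1.53 (pseudocount of 5 FPKM), zinc and copper genes were at 1.45 with the filter of 20 FPKM and root hair outgrowth genes at 1.18 with a pseudocount of 5 FPKM. The Casparian strip and suberin median changed sign with the filter of 20 FPKM (-0.16, then 0.27), as did heat shock with no filter (0.08, then -0.20). Other small medians changed sign too. Among them were Mg2+ transport (-0.07, then 0.04) and ethylene (0.13, then -0.03) with the filter of 20 FPKM. Root hair transcription factors went from 0.02 to -0.05 after rescaling to TPM. Further settings were chosen after seeing the data. Leaving FSD1 out of the copper uptake list kept its count within 1.5 times. Rescaling to TPM put the genes in which low Mg at 7 d was the lowest of 5 libraries at 3 copper proteins, against 10, and 1 body gene, against 12, and those in which high Mg at 7 d was the lowest at 3 root hair genes, against 24. At 4 d it put defence genes higher in low Mg at 6, against 13, root hair genes lower at 23, against 8, and triterpene genes lower at 3, against 5. With 1 library per group, no difference has a replicate error. Depth limits low genes most, since 5 FPKM on 1 kb is about 35.4 fragments in low Mg.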
